A study of Mus musculus with 2 samples.

Results

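The transcripts of 10 enzymes of glycolysis, chosen by name as Hk2, Pfkl, Pfkp, Aldoa, Gapdh, Pgk1, Pgam1, Eno1, Pkm and Ldha out of 19537 genes in the matrices, were followed in single microglia of PARK7/DJ-1 knock-out (KO) mice and their wildtype (WT) littermates, 24 h after they were injected intraperitoneally with lipopolysaccharide (LPS), a component of the bacterial outer membrane. The KO LPS group carried a constitutive gene-trap allele of Park7, the gene of the Parkinson's disease protein DJ-1, while the WT LPS group lacked it, all of them adult, on a C57BL/6NCrl background and given LPS. CD11b+CD45int brain cells were sorted and captured by Drop-seq, in which beads with cell barcodes collect RNA by its 3′ end and each captured molecule carries a unique molecular identifier (UMI). There was 1 library per genotype, pooling 2 mice, a female and a male, so that genotype cannot be told apart from library, no test between genotypes could be made, and every interval given here (95%) covers counting error only. The study asked how the loss of DJ-1 alters microglia under systemic inflammation.

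Glycolysis splits glucose into pyruvate in the cytosol and yields ATP without oxygen. Its flux is set largely at hexokinase, phosphofructokinase and pyruvate kinase, and lactate dehydrogenase regenerates the NAD+ that the pathway consumes. Macrophages and microglia stimulated with LPS are known to raise glycolysis and lactate output, and several of the enzymes are classical targets of hypoxia-inducible factor 1 (HIF-1).

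Cells were barcodes with at least 500 UMIs and at least 100 genes, which gave 320 cells and 381305 UMIs in KO LPS against 1427 cells and 1989011 UMIs in WT LPS, with a median of 963.5 and 1065 UMIs per cell. No barcode was shared between the cells of both libraries. All 12 microglia markers of the fixed list were present, at a summed 42525 and 40096 UMIs per 1e6 UMIs of the cells (CPM) in KO LPS and WT LPS. Park7 itself had 1 UMI in KO LPS against 323 in WT LPS. The libraries also differed in other respects. Choroid plexus markers summed to 2130 CPM in KO LPS against 15.1 CPM in WT LPS, endothelial markers to 94.4 and 18.1 CPM, astrocyte markers to 399 and 190 CPM, B lymphocyte markers to 99.7 and 58.3 CPM, and neutrophil markers to 0 and 68.4 CPM. An Xist UMI, which marks female cells, was found in 209 cells of KO LPS and 645 of WT LPS, and a Y-linked UMI without Xist in 12 and 195.

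For orientation, the letters before the start of the 5 most abundant members are shown, since 4 of these differed between the libraries together and the fifth, Hk2, did not. The sequences are the 250 bases before the start site in RefSeq (GRCm38.p6), written from 5′ to 3′ on the strand of the gene, at chr6:82774455-82774704 for Hk2 and chr7:126799255-126799504 for Aldoa (minus strand) and at chr4:150236458-150236707, chr9:59656326-59656575 and chr7:46845554-46845803 for Eno1, Pkm and Ldha (plus strand). Capitals mark the core letters of a HIF site, ACGTG or GCGTG, on either strand, so that CACGT and CACGC count as well and the palindrome CACGTG counts as 2 overlapping matches.
Hk2: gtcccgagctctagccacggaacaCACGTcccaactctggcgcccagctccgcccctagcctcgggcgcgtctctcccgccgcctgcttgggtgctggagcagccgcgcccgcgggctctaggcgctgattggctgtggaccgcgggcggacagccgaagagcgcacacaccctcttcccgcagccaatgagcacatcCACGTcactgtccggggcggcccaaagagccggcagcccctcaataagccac
Aldoa: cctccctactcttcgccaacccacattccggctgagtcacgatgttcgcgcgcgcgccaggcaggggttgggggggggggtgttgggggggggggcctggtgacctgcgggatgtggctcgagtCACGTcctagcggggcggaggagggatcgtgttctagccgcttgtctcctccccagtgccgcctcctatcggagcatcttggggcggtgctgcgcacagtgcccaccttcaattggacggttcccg
Eno1: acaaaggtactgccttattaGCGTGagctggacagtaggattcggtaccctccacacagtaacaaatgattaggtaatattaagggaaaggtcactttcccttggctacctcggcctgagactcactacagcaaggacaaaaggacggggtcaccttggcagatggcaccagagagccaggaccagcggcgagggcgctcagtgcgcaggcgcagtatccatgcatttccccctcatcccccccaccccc
Pkm: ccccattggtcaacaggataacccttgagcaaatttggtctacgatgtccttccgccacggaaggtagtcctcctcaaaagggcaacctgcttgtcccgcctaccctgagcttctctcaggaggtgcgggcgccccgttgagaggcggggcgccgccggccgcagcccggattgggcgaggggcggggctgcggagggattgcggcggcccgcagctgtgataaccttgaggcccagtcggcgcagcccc
Ldha: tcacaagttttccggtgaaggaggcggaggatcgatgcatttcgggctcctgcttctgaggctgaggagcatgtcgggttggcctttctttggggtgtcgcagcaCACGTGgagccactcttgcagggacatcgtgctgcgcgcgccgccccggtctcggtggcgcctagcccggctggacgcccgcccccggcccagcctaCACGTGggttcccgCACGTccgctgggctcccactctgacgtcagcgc

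The Ldha window held 5 matches, Hk2 held 2, Aldoa and Eno1 held 1 each, and Pkm held 0. Where a gene had several RefSeq starts, the window nearest to the start of the GENCODE canonical transcript was taken. For Pkm that window lay 224 bases from it, and for Ldha 35 bases. Over all 10 members, 9 windows held a match, beside 38.6% of the 32851 windows of all genes and 56.4% of the windows whose GC content lay within the range of the members (55.6% to 69.6%). These are matches of letters and not measured binding sites. The number of matches was not set against the levels.

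Of the 10 members, Aldoa, Eno1, Pkm and Ldha were lower in KO LPS than in WT LPS with intervals of the ratio below 1, and no member had an interval above 1. The 10 members summed to 823 CPM (interval 735 to 920) in KO LPS against 1270 CPM (1221 to 1320) in WT LPS. Their ratio was 0.648 (0.575 to 0.729). Hk2 stood at 441 and 415 CPM and gave 53.5% of the members' UMIs in KO LPS against 32.7% in WT LPS. Here and below, Hk2 was also left out of the sum, a choice made after seeing its ratio. The other 9 members summed to 383 CPM (323 to 450) and 855 CPM (815 to 896). Their ratio of 0.448 (0.376 to 0.531) is lower partly through that choice. Since UMIs count 3′ ends, these levels need no division by transcript length.

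**Figure D1:**
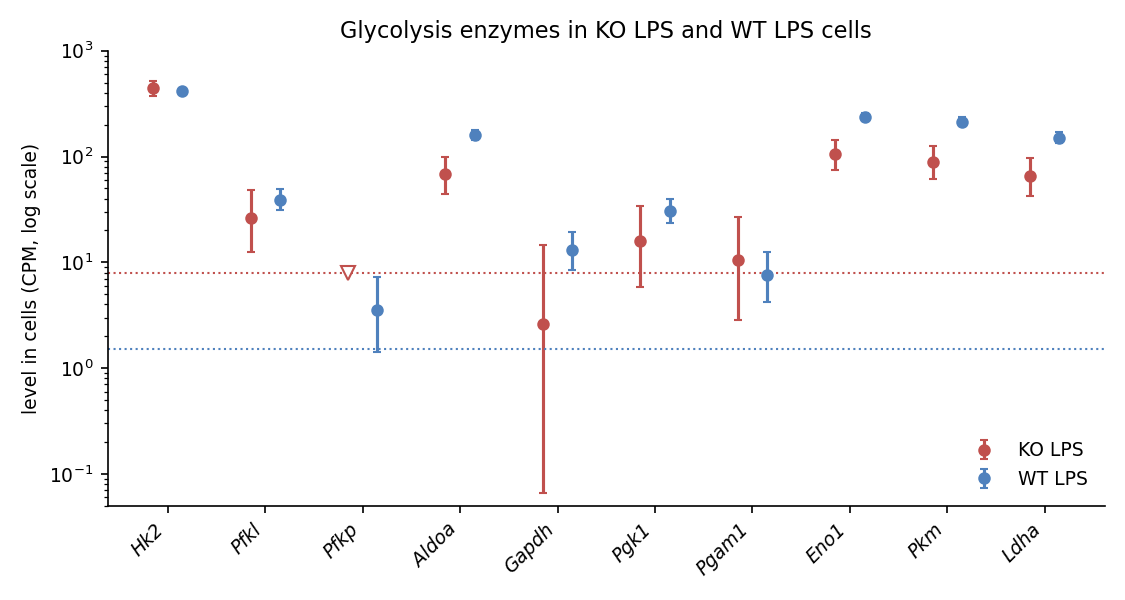
Level of each enzyme (CPM, log axis) in the cells of KO LPS (red) and WT LPS (blue), with exact Poisson intervals of 95% as bars. Dotted lines are the level of 3 UMIs in each library (7.87 and 1.51 CPM), and the open triangle marks Pfkp, which had 0 UMIs in KO LPS. Aldoa, Eno1, Pkm and Ldha were lower in KO LPS with intervals that did not overlap, while those of Hk2 did.

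Hexokinase phosphorylates glucose on entry and commits it to the cell. Hk2 (chr6:82725025-82774454), the inducible isozyme, was the most abundant member in both libraries. It had 168 UMIs in KO LPS, or 441 CPM (376 to 512), and 826 UMIs in WT LPS, or 415 CPM (387 to 445), and the ratio of 1.06 (0.893 to 1.25) included 1. Other hexokinases were far lower. Hk1, the housekeeping isozyme, had 8 and 21 UMIs, and Hk3, an isozyme of myeloid cells, had 12 and 67 (ratio 0.934, 0.460 to 1.74). Adpgk, which uses ADP in place of ATP for the same step, had 0 UMIs in KO LPS against 63 in WT LPS. Set at the level of 3 UMIs it would be 4.03-fold lower, and the interval of its ratio ran from 0 to 0.315.

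Phosphofructokinase carries out the committed step. Pfkl (chr10:77986947-78009807), the liver-type subunit, had 10 UMIs in KO LPS (26.2 CPM, 12.6 to 48.2) against 78 in WT LPS (39.2 CPM, 31.0 to 48.9), a ratio of 0.669 (0.309 to 1.30). Pfkp (chr13:6579874-6649060), the platelet-type subunit, had 0 and 7 UMIs, and its WT LPS level of 3.52 CPM lay under the 7.87 CPM that 3 UMIs would give in KO LPS, so that no fold could be stated. At this depth no difference in phosphofructokinase was detectable. The upstream isomerase Gpi1, which is outside the 10 members, was at 31.5 CPM in KO LPS against 81.4 CPM in WT LPS (ratio 0.386, 0.196 to 0.694).

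Aldolase cleaves fructose 1,6-bisphosphate into triose phosphates. Aldoa (chr7:126795234-126800994), the main isozyme outside liver, had 26 UMIs in KO LPS, or 68.2 CPM (44.5 to 99.9), and 317 UMIs in WT LPS, or 159 CPM (142 to 178). The ratio was 0.428 (0.275 to 0.639). Aldoc, the astrocyte isozyme, was rare, with 5 and 17 UMIs. Tpi1, which interconverts the triose phosphates, had 13 and 94 UMIs (ratio 0.721, 0.370 to 1.29).

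The enzymes of the middle of the pathway were sparse. Gapdh (chr6:125161852-125166467), which oxidises glyceraldehyde 3-phosphate and is often used as a reference gene, had 1 UMI in KO LPS against 26 in WT LPS (2.62 and 13.1 CPM), with a ratio of 0.201 whose interval ran from 0.00489 to 1.22. Pgk1 (chrX:106187100-106203699), the first ATP-yielding enzyme, had 6 and 61 UMIs (ratio 0.513, 0.181 to 1.18). Pgam1 (chr19:41911871-41918665), the phosphoglycerate mutase, had 4 and 15 UMIs (ratio 1.39, 0.336 to 4.37). For none of these members did the interval exclude equal levels. They were also among the members with near-copies elsewhere: the last 300 bases of the canonical transcript matched 37 other places of GRCm39 for Gapdh, 3 for Pgk1 and 4 for Pgam1, at an identity of at least 95% over at least 80% of the length. The same search found 4 such places for Eno1 and 0 for Hk2, Pfkl, Pfkp, Aldoa, Pkm and Ldha. Levels of the members with copies are therefore uncertain, and the part of the copies in their low counts was not tested. In the annotation another gene also covered the last 300 bases of Pfkl (Cfap410), Pfkp (Pitrm1), Aldoa (Gm57854), Gapdh (Iffo1), Pkm (Gm69525) and Ldha (Gm39011), and whether the counting used the strand was not stated.

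The members of the last steps, Eno1, Pkm and Ldha, each had an interval below 1. Eno1 (chr4:150236708-150248879), the enolase of most tissues, had 40 UMIs in KO LPS, or 105 CPM (74.9 to 143), and 471 UMIs in WT LPS, or 237 CPM (216 to 259), a ratio of 0.443 (0.312 to 0.612). Pkm (chr9:59656576-59679372), the pyruvate kinase of muscle and leukocytes, had 34 and 425 UMIs, or 89.2 CPM (61.8 to 125) and 214 CPM (194 to 235), a ratio of 0.417 (0.285 to 0.592). The 3′ counts do not separate its M1 and M2 splice forms. Ldha (chr7:46842274-46855627), the lactate dehydrogenase subunit that favours lactate formation, had 25 and 300 UMIs, or 65.6 CPM (42.4 to 96.8) and 151 CPM (134 to 169), a ratio of 0.435 (0.277 to 0.654). Together with Aldoa these transcripts summed to 328 CPM in KO LPS against 761 CPM in WT LPS (ratio 0.431, 0.356 to 0.517). These 4 genes are the members whose own intervals lay below 1, so their sum is low by construction. Their ratios lay between 0.417 and 0.443.

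The partner subunit went the other way. Ldhb, which favours the oxidation of lactate to pyruvate, had 110 UMIs in KO LPS (288 CPM, 237 to 348) against 324 in WT LPS (163 CPM, 146 to 182), a ratio of 1.77 (1.41 to 2.21). Ldhb thus exceeded Ldha in KO LPS, 288 against 65.6 CPM, while both were near each other in WT LPS, 163 against 151 CPM. Its level in near-empty barcodes (100 UMIs or fewer), taken to hold mostly free RNA, was also higher in KO LPS, 161 against 79.2 CPM (ratio 2.03, 1.17 to 3.58), and the cells exceeded it 1.79-fold (1.20 to 2.75) in KO LPS and 2.06-fold (1.37 to 3.23) in WT LPS. Astrocyte, choroid plexus and endothelial markers were higher in KO LPS too. In cells without any astrocyte marker UMI, a subset chosen after seeing the data (230 in KO LPS, 1189 in WT LPS), the ratio of Ldhb was 1.86 (1.40 to 2.43) and that of the 9 members without Hk2 was 0.452 (0.363 to 0.557). In cells without any choroid plexus or endothelial marker UMI (244 and 1374, likewise chosen afterwards) these ratios were 1.83 (1.41 to 2.35) and 0.432 (0.348 to 0.531). The part of free RNA in the level of Ldhb was not tested. The rare enolases Eno2 and Eno3 had 1 and 6 UMIs in KO LPS against 1 and 21 in WT LPS.

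Of the 8 members with at least 20 UMIs over both libraries, 6 had levels more than 1.5-fold lower in KO LPS (Aldoa, Gapdh, Pgk1, Eno1, Pkm and Ldha), of which the intervals of Gapdh and Pgk1 included equal levels, and 0 were more than 1.5-fold higher, where 28.0% of the 9085 genes with that many UMIs were lower and 25.0% were higher by the same fold. The median log2 ratio of the members was -1.17, and that of all these genes 0.03. The share of all genes past 1.5-fold was thus large in either direction, and the members' count is to be read against it. WT LPS held more UMIs, so genes pass this limit mainly through WT LPS. Gapdh passed through its 26 UMIs there, while Pgam1, with 4 and 15 UMIs and a ratio above 1, did not pass. With a limit of 1 UMI, 7 of 10 members were lower and 0 higher, beside 37.5% and 31.7% of 15846 genes.

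**Figure D2:**
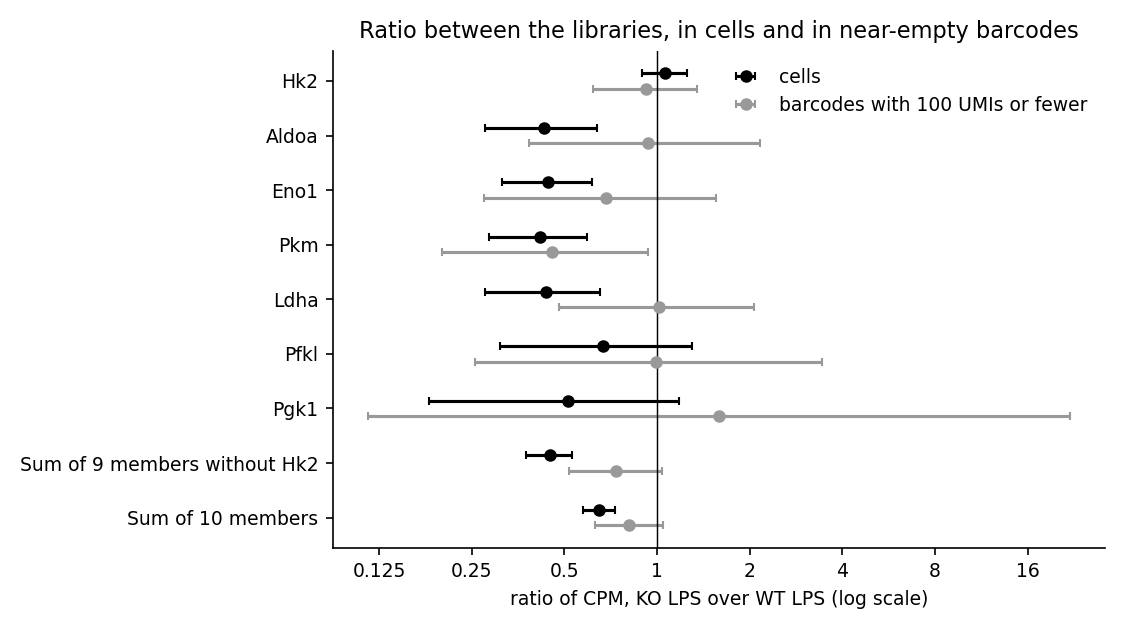
Ratio of the CPM of KO LPS over WT LPS (log axis) with exact intervals of 95%, in cells (black) and in barcodes with 100 UMIs or fewer (grey). In cells the ratio was 0.648 for the 10 members, 0.448 for the 9 without Hk2 (left out after seeing the data) and 1.06 for Hk2. In the near-empty barcodes it was 0.812, 0.737 and 0.920, with intervals that included 1 for all rows except Pkm.

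Barcodes with 100 UMIs or fewer were taken to hold mostly free RNA, and they served as the background. There were 9236 such barcodes with 198723 UMIs in KO LPS, against 4270 with 315748 UMIs in WT LPS. The backgrounds thus differed in depth per barcode, a limit on setting folds over them side by side. In them the 9 members without Hk2 summed to 257 CPM in KO LPS against 348 CPM in WT LPS (ratio 0.737, 0.518 to 1.04), and Pkm was the member with an interval below 1 (ratio 0.454, 0.200 to 0.937). The cells of KO LPS exceeded their own background 1.49-fold (1.08 to 2.09) and those of WT LPS 2.45-fold (2.02 to 3.003) for these 9 members. Eno1 exceeded the background 2.32-fold (1.11 to 5.43) in the cells of KO LPS and 3.56-fold (2.30 to 5.81) in those of WT LPS, and Pkm 1.77-fold (0.856 to 4.02) and 1.93-fold (1.36 to 2.80). For Ldha the level in the cells of KO LPS was near the background (0.931-fold, 0.466 to 1.94), against 2.16-fold (1.40 to 3.51) in WT LPS. For Aldoa the values were 1.36-fold (0.632 to 3.15) and 2.96-fold (1.82 to 5.15), and for Hk2 1.99-fold (1.42 to 2.84) and 1.73-fold (1.36 to 2.21).

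Depth and sex differed between the libraries, so the ratio of the 9 members without Hk2 was also taken within classes of cells. It was 0.425 (0.296 to 0.596) in cells of 500 to under 1000 UMIs, 0.461 (0.351 to 0.597) in cells of 1000 to under 2000 UMIs and 0.496 (0.357 to 0.672) in cells of 2000 or more. It was 0.464 (0.375 to 0.568) in cells with an Xist UMI. In cells with a Y-linked UMI and no Xist UMI it was 0.417, but the 12 such cells of KO LPS held 5 UMIs of these members, and the interval ran from 0.134 to 0.987. Hk2 had 0 UMIs in those 12 cells, and gave ratios of 0.988 to 1.12 over the 3 depth classes and 1.13 (0.923 to 1.38) in cells with an Xist UMI. Without the cells holding at least 3 UMIs of choroid plexus, neutrophil, endothelial, border macrophage or monocyte markers, which left 312 and 1417 cells, the log2 ratio of the summed 10 members was -0.66, against -0.62 with them.

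To compare shares of cells, every cell was thinned to 500 UMIs. Hk2 was found in 20% of KO LPS cells (15.8% to 24.8%) and 19.6% of WT LPS cells (17.6% to 21.8%), and in 35.9% and 39.2% without thinning. Droplets of 500 UMIs drawn from the background would carry it in 10.5% and 11.3% of cases, so that the cells of both libraries lay above.

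Pkm was found in 3.13% of KO LPS cells (1.51% to 5.67%) and 10.2% of WT LPS cells (8.64% to 11.8%), with 2.48% and 5.39% in background droplets. Eno1 was found in 4.38% (2.41% to 7.23%) and 9.18% (7.73% to 10.8%), with 2.24% and 3.27% in background droplets. Aldoa was found in 2.50% (1.09% to 4.87%) and 6.94% (5.67% to 8.38%), with 2.48% and 2.66%, and Ldha in 2.50% (1.09% to 4.87%) and 6.17% (4.97% to 7.54%), with 3.46% and 3.42%. In KO LPS the intervals of Aldoa, Pkm and Ldha included the background share, and for these no excess over it was detectable with this number of cells. In WT LPS, where 1427 cells give narrower intervals than 320, those of all 4 genes lay above. These shares are of the first thinning draw, and over the 11 draws the KO LPS share ran from 2.50% to 4.69% for Pkm, from 3.13% to 5.31% for Eno1, from 2.50% to 3.75% for Aldoa and from 1.56% to 4.06% for Ldha. At its lowest share the interval of Eno1 would include the background share, and at its highest share that of Pkm would lie above. Whether these genes exceeded the background in KO LPS thus rests on the draw. Unthinned, the shares of KO LPS and WT LPS were 9.06% and 22.5% for Pkm, 10.6% and 23.1% for Eno1, 6.88% and 18.5% for Aldoa and 7.19% and 16.4% for Ldha.

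**Figure D3:**
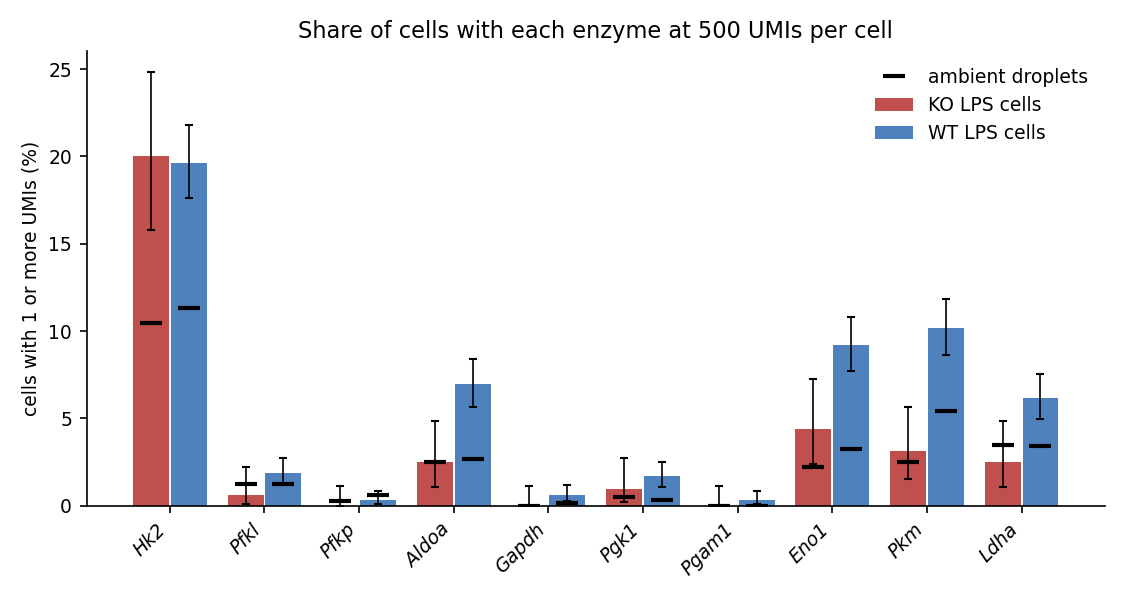
Share of cells with 1 or more UMIs of each enzyme after thinning to 500 UMIs, in KO LPS (red) and WT LPS (blue), with exact Clopper-Pearson intervals of 95%. Black dashes give the share that droplets of 500 UMIs drawn from the background would reach. Hk2 bars are alike at 20% and 19.6%, whereas Aldoa, Eno1, Pkm and Ldha rise above the dashes in WT LPS.

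The remaining members were rarer in thinned cells. The most frequent, Pfkl in WT LPS, was found in 1.89% of cells, with 1.61% to 2.38% over 11 thinning draws and 5.12% without thinning, and its interval (1.25% to 2.74%) included the 1.26% of background droplets. Pfkp, Gapdh and Pgam1 were in 0 of 320 thinned cells of KO LPS, for which the interval reached 1.15%. A UMI of any member was found in 31.3% of KO LPS cells (26.2% to 36.6%) and 45.1% of WT LPS cells (42.5% to 47.8%), where background droplets would reach 21.3% and 25.5%, and of any member without Hk2 in 13.4% (9.90% to 17.7%) and 31.0% (28.6% to 33.4%), where background droplets would reach 12.04% and 15.99%.

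Cells with several glycolytic UMIs were rare. At 500 UMIs per cell, 3 or more summed UMIs were found in 1 of 320 cells of KO LPS (0.313%) and 43 of 1427 cells of WT LPS (3.01%), a difference of -2.70 percentage points (-3.77 to -1.06). Over 11 thinning draws, the first included, the difference ranged from -2.70 to -1.20 points with a median of -1.97, and its interval lay below 0 in 5 of them, so the size of this difference rests on the draw. For the share with any member it lay below 0 in 11 of 11 draws. Without thinning the shares were 10.6% and 23.9%. The variance of the summed UMIs over their mean was 0.989 in KO LPS against 1.07 in WT LPS, where counting alone gives 1, and for the 9 members without Hk2 it was 1.03 and 1.14.

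Members hardly varied together from cell to cell. At 500 UMIs per cell, the Pearson correlation of the 45 pairs of members across the 1427 cells of WT LPS ranged from -0.03 to 0.11, with a median of -0.005, and was highest for Aldoa with Eno1. Over 320 cells of KO LPS the 21 pairs that could be computed ranged from -0.07 to 0.18, with a median of -0.02. All cells of a library share its depth and background, and in counts this sparse such values are a description only. The genes whose counts followed the summed 10 members most closely in WT LPS were Mcfd2 (0.113), Gtf2a2 (0.0965), Ube2d3 (0.0876), Cox7a2 (0.0854) and Fth1 (0.0834), out of 1924 genes found in at least 5% of cells. In KO LPS they were Plaa (0.210), Cd34 (0.206), Nbea (0.204), Agpat6 (0.185) and Ap2b1 (0.181), out of 1934. For the 9 members without Hk2 the values of the 5 closest genes ran from 0.0998 to 0.135 in WT LPS, where Fth1 was the closest, and from 0.201 to 0.229 in KO LPS.

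Saa3, an acute-phase protein of activated macrophages, marked a small share of WT LPS cells and was at 0 UMIs in KO LPS cells, against 8367 UMIs (4207 CPM) in WT LPS. At 500 UMIs per cell, 153 cells of WT LPS had 5 or more Saa3 UMIs, 284 had 1 to 4 and 990 had 0. Background droplets would carry 1 or more Saa3 UMIs in 48.3% of cases but 5 or more in 0.0591%, so the middle class cannot be told apart from free RNA, whereas the highest class lies far above it. The highest class held 80.9% of the Saa3 UMIs of these cells and was deeper, with a median of 1274 UMIs against 1032 in cells with 0.

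At equal depth the summed 10 members gave 0.654 UMIs per cell (0.532 to 0.795) in the highest Saa3 class, 0.588 (0.502 to 0.684) in the middle class and 0.612 (0.564 to 0.663) in cells with 0, a ratio of highest over 0 of 1.07 (0.855 to 1.32), or 0.10 on the log2 scale. Over the 11 draws this ratio ranged from 1.07 to 1.27 with a median of 1.22, and its interval lay above 1 in 3. With the Saa3 UMIs removed before thinning, so that they took no part of the 500, the ratio was 1.26 (1.02 to 1.53). Across the 1427 cells the Pearson correlation of the summed members with Saa3 was 0.0348 and the Spearman correlation -0.00315, and for the 9 members without Hk2 they were 0.0690 and 0.00704. For the 9 members without Hk2 the ratio was 1.24 (0.959 to 1.60) in the first draw, and over the draws it ranged from 1.24 to 1.49 with an interval above 1 in 9 of 11.

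Single members were compared between the Saa3 classes as well. In all UMIs of the same cells, per 1e6 UMIs other than Saa3, Eno1 was at 216 CPM in cells with 0 Saa3 UMIs and 340 in the highest class, a ratio of 1.58 (1.23 to 2.01). Aldoa was at 153 and 238 (ratio 1.56, 1.15 to 2.07), and Pkm at 195 and 295 (ratio 1.51, 1.16 to 1.96). Ldha was at 151 and 155 (ratio 1.03, 0.715 to 1.45), and Hk2 was at 412 and 370 (ratio 0.899, 0.717 to 1.12). For the 9 members without Hk2 the ratio was 1.43 (1.25 to 1.63). These counts were not thinned, a choice made after seeing the data, and the Saa3-rich cells were deeper. At 500 UMIs per cell the ratios were 1.37 (0.814 to 2.21) for Eno1, 1.29 (0.673 to 2.32) for Aldoa and 1.51 (0.906 to 2.43) for Pkm, and the interval lay above 1 in 4, 2 and 2 of the 11 draws. A higher level of any single enzyme in the Saa3-rich cells was therefore not established at equal depth.

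**Figure D4:**
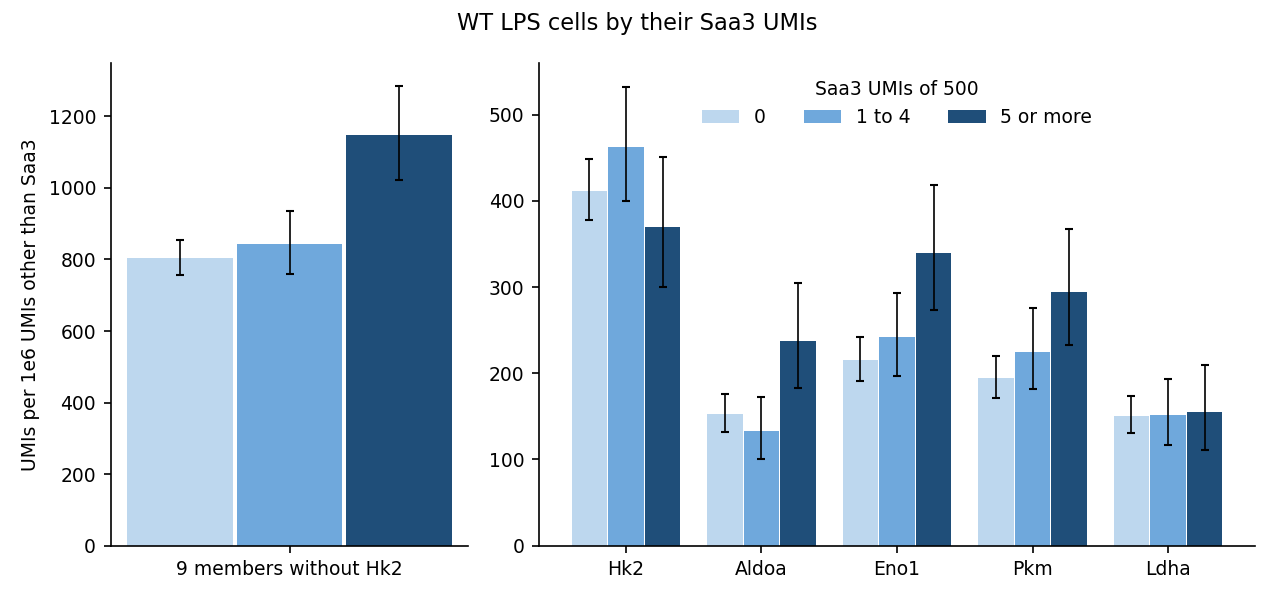
Levels in WT LPS cells grouped by their Saa3 UMIs at 500 UMIs per cell (990, 284 and 153 cells), as UMIs per 1e6 UMIs other than Saa3, for the 9 members without Hk2 (left) and for 5 members (right), with exact Poisson intervals of 95%. The counts are not thinned and the highest class is deeper. The sum is at 1148 in the highest class against 804 in cells with 0, and the bars of the middle and the highest class overlap for Hk2, Eno1, Pkm and Ldha.

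Depth moved with the Saa3 class, and the 9 members without Hk2 rose from 707 to 936 CPM between the shallowest and the deepest class of WT LPS cells. Within depth classes their ratio of highest over 0 was 1.56 (1.10 to 2.18) at 500 to under 1000 UMIs, 1.26 (0.995 to 1.58) at 1000 to under 2000 UMIs and 1.46 (1.21 to 1.75) at 2000 or more. Of the 7 members with at least 20 thinned UMIs over both classes, 2 were more than 1.5-fold higher in the highest class (Pgk1 and Pkm) and 1 was lower (Pfkl), in a comparison in which 14.9% of 5083 genes were higher and 25.9% were lower. The intervals of these 3 ratios included 1, and they are of the first draw. Over the 11 draws the median ratio was 2.16 for Pgk1, 1.33 for Pkm and 0.984 for Pfkl. Cells with an Xist UMI made up 53.6% of the highest class and 43.2% of the cells with 0, and within them the log2 ratio of the summed 10 members was -0.16. The part of depth and sex in these differences was not tested further.

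As KO LPS had no Saa3-rich cells, its levels were also set against WT LPS cells without Saa3. At 500 UMIs per cell, KO LPS cells held 0.147 UMIs (0.108 to 0.195) of the 9 members without Hk2 and WT LPS cells with 0 Saa3 UMIs held 0.394 (0.356 to 0.435), a ratio of 0.373 (0.269 to 0.506). Against the highest Saa3 class the ratio was 0.300 (0.204 to 0.437). For Hk2 the ratios were 1.06 (0.803 to 1.39) and 1.42 (0.889 to 2.33). Against all WT LPS cells at the same depth the ratio of the 9 members was 0.375 (0.272 to 0.505). The first draw gave the lowest of these ratios, and over the 11 draws they ranged from 0.373 to 0.453 against cells with 0 Saa3 UMIs and from 0.375 to 0.447 against all cells. Unthinned, the ratio was 0.471 (0.392 to 0.563) against the 844 WT LPS cells without any Saa3 UMI, also chosen after seeing the data, beside 0.448 against all cells, and the median log2 ratio of the members was -0.87, beside -1.17.

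Neighbouring pathways were compared through lists of their genes, whose counts are to be read beside the 28.0% of all genes that were lower and the 25.0% that were higher by the same fold. Of 25 nuclear-encoded subunits of oxidative phosphorylation, 20 were more than 1.5-fold lower in KO LPS and 0 higher, with a median log2 ratio of -0.84, a sum of 2418 CPM in KO LPS against 4314 CPM in WT LPS, and ratios from 0.370 (Cox5a, of complex IV) to 1.03 (Uqcrh, of complex III). Here too the cells of WT LPS exceeded their background more (3.18-fold, 2.89 to 3.52) than those of KO LPS (1.53-fold, 1.34 to 1.74). Of 7 mitochondrially encoded transcripts with at least 20 UMIs, 1 was lower (mt-Nd1, ratio 0.654), and their sum was 6250 and 7136 CPM. The glycolytic members were therefore not alone in their direction. The median of the respiratory subunits lay nearer to 0 than that of the members. By summed level the order was the other way, with a ratio of 0.560 (0.523 to 0.600) for the subunits and 0.648 (0.575 to 0.729) for the 10 members.

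Of 24 genes of the tricarboxylic acid cycle, 8 were lower and 1 higher, beside 28.0% and 25.0% of all genes, with a median log2 ratio of -0.37. Irg1, which makes itaconate from a cycle intermediate in LPS-treated macrophages, was at 0 UMIs in KO LPS against 83 in WT LPS. Set at the level of 3 UMIs it would be 5.30-fold lower, and the interval of its ratio ran from 0 to 0.237. Idh2 was highest (ratio 1.74, 1.03 to 2.82). In the pentose phosphate pathway, which branches off after hexokinase, 4 of 8 genes were lower and 1 higher, from Tkt (ratio 0.374, 0.218 to 0.603) to Rpia (ratio 2.61, 1.44 to 4.57). Of 6 genes of glycogen metabolism with enough UMIs, 1 was lower, and Ugp2 was at a ratio of 0.958.

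Of 17 transporters and regulators of glycolysis with at least 20 UMIs, 7 were lower and 3 higher, with a median of -0.42 on the log2 scale. Among those with at least 50 UMIs the lowest was Tigar, listed under its older symbol 9630033F20Rik, a phosphatase that draws down fructose 2,6-bisphosphate (3 and 58 UMIs, ratio 0.270, 0.0541 to 0.829), and the highest was Pdk1, the kinase that shuts off pyruvate dehydrogenase (50 and 131 UMIs, ratio 1.99, 1.41 to 2.78). Of 12 genes of the HIF pathway, 3 were lower and 2 higher, beside 28.0% and 25.0% of all genes, with a median of 0.34. They ran from Ero1l (ratio 0.220, 0.0444 to 0.671), an oxidase of the endoplasmic reticulum, to Mxi1 (ratio 2.51, 1.51 to 4.08), a repressor that opposes Myc. The whole HIF list summed to 1039 CPM in KO LPS against 1076 CPM in WT LPS (ratio 0.965, 0.865 to 1.08), so by level it did not differ. Of the 9 other glycolytic isozymes and steps with at least 20 UMIs, 2 were lower and 4 higher, with a median of 0.66, and the summed level of that list was 472 CPM in KO LPS against 401 CPM in WT LPS (ratio 1.18, 0.995 to 1.38). Ldhb carried the direction of this sum, with 110 of the 180 UMIs of the list in KO LPS and 324 of the 798 in WT LPS. Without it, a choice made after seeing the data, the list summed to 184 against 238 CPM (ratio 0.770, 0.591 to 0.992). The count of 4 higher genes and the positive median do not rest on Ldhb alone.

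**Figure D5:**
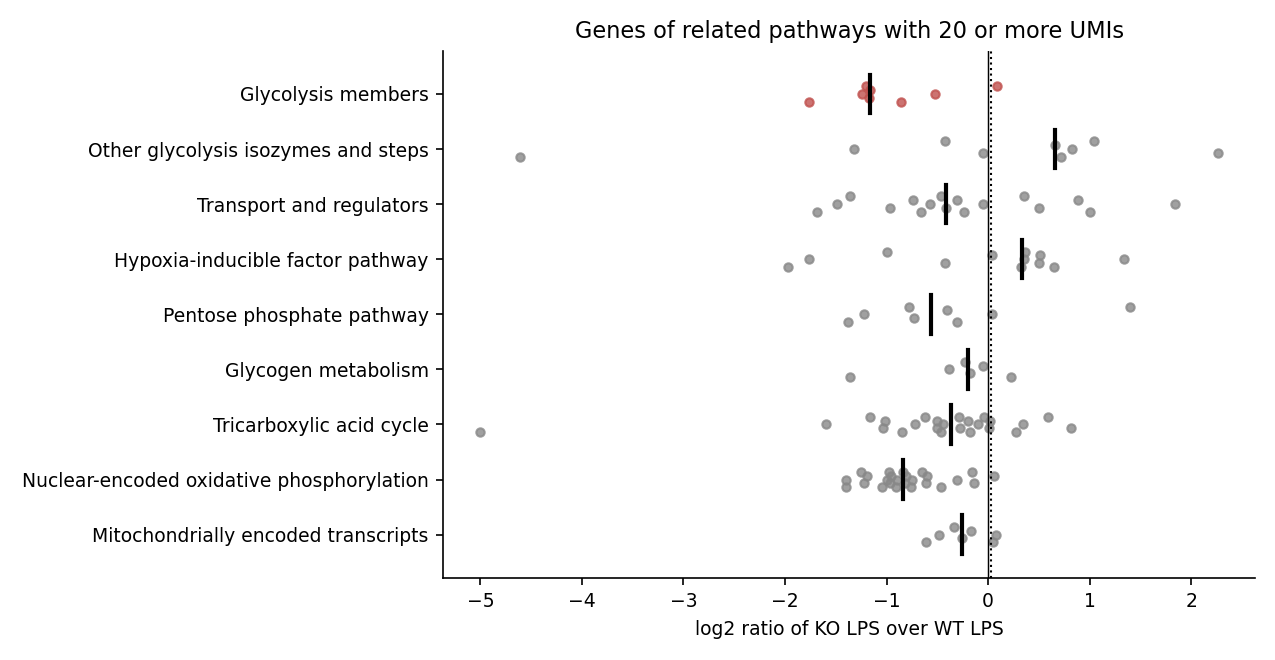
Log2 ratio (KO LPS over WT LPS) for the genes of each list with at least 20 UMIs over both libraries (points, with a prior count of 0.5), the median of each list (black bar) and the median of all 9085 genes (dotted line, 0.03). The members (red) have a median of -1.17, the respiratory subunits -0.84 and the HIF list 0.34. The ratios of the summed lists were 0.648, 0.560 and 0.965 in that order.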

How the data were processed

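Drop-seq libraries were analysed for 1 KO LPS and 1 WT LPS sample, each of 2 pooled mice. The authors deposited raw UMI counts for 9999 barcodes per library without a filter on cells. The submitters' processing notes name bcl2fastq 2.0, STAR and the builds mm9 and mm10 without their roles. The counting program, the annotation and the use of strand are not given in the sources used here. Genes missing from a library (13921 were listed in KO LPS and 16501 in WT LPS) were read as 0, which covers the older symbols matched through RefSeq.

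Cells were barcodes with at least 500 UMIs and 100 genes. Doublets were not called, and the 2% deepest cells were left out as an alternative. Deposited counts were summed over cells and scaled to CPM with Python 3.11.15, using scipy 1.17.1, numpy 2.4.6 and pandas 2.3.3. Intervals (95%) were exact Poisson for levels, conditional binomial for ratios and Clopper-Pearson for shares, and cover counting error only. Log2 ratios used a prior count of 0.5. A fold against a gene at 0 used a floor of 3 UMIs, which is 7.87 CPM in KO LPS against 1.51 CPM in WT LPS. Barcodes holding at most 100 UMIs gave the background. Cells were thinned without replacement to 500 UMIs for shares, Saa3 classes and correlations, and 10 further draws were made. Genes past 1.5-fold were counted among those with at least 20 UMIs.

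The study compared single cells with MAST, which was not applied here, as cells of the same library are no replicates. No test and no p-value is given, and calculations were tested on simulated data. The members and gene lists were chosen with earlier results of these data known. The text names the members, the isozymes of their steps, the lowest and highest gene of each list with at least 50 UMIs, Park7, Saa3 and the 5 genes most correlated with the summed members per library. Gene positions and start windows are RefSeq, GRCm38.p6. Copies of 3′ ends were searched in GRCm39 with BLAST 2.17.0 and GENCODE vM39, and all 10 canonical transcripts were found. No coordinates were taken from the matrices.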

Additional observations from a re-analysis of the deposited data

How the results depend on the processing

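No paired analysis was possible because each genotype had 1 library, and no library could be left out. The log2 ratio of the summed members, -0.62, stayed negative in all 12 alternatives, from -1.72 in cells with a Y-linked UMI and no Xist UMI (12 cells in KO LPS) to -0.53 in cells with an Xist UMI, and was -1.15 without Hk2, a setting chosen after seeing the data. The median member ratio, -1.17, lay between -1.25 and -0.87 in all alternatives except those Y-linked cells. In them it was 0.06, a value set largely by the prior count of 0.5, as 6 members had 0 UMIs in KO LPS. There, where KO LPS held few UMIs of any member, the log2 ratio of Ldha was 0.36 and that of Hk2 -3.62. Pfkp (2.83), Gapdh (0.71) and Pgk1 (0.71) were positive although they had 0 UMIs in these KO LPS cells. For them the sign comes from the prior count alone and shows no higher level. The count of members at levels lower by 1.5-fold without a minimum of UMIs, 7, which includes Pfkp, Gapdh and Pgk1 with intervals that include 1, ran from 7 to 8. Its 8 in the Y-linked cells says nothing of stability, since 6 members had 0 UMIs in KO LPS there and counted as lower. It was 4 among genes with at least 100 UMIs, where 5 members were left. The count higher, 0, became 1 in cells with at least 1000 UMIs, in the Y-linked cells and, in a setting added after seeing the data, without cells holding markers of another type.

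The difference in the share of cells with 3 or more UMIs, -2.70 points, was -6.83 points when thinned to 1000 UMIs, -13.3 points unthinned, -13.9 points for 1 or more UMIs and -0.210 points for 5 or more. The log2 ratio of the highest Saa3 class over cells with 0, 0.10, was 0.40 in the Y-linked cells (17 and 142 cells) and -0.16 in cells with an Xist UMI. It was 0.33 with Saa3 UMIs removed before thinning and 0.32 in unthinned counts, the last added after seeing the data. Centring on all genes moved ratios by 0.03. The intervals of Hk2, Pfkl, Pfkp, Gapdh, Pgk1 and Pgam1 include equal levels.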
